A study of Mus musculus with 27 samples.

Results

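DNA methylation was described at 7 genes that direct fat and sterol synthesis in hepatocytes, the cells that carry out most of the metabolic work of the liver: the regulators Srebf1, Srebf2 and Mlxipl and the enzymes Acaca, Fasn, Elovl6 and Scd1. The members were the CpG positions inside the span of each gene on GRCm38, or within 5 kb of it, that were listed in at least 2 of 3 samples of every strain. This rule gave 1515 of the 1951655 positions that met the same listing rule over the genome. Methylation was read by reduced representation bisulfite sequencing, in which the enzyme MspI cuts DNA at CCGG and bisulfite then separates methylated from unmethylated cytosines. The study set genetic differences between strains against epigenetic marks and gene expression, and only its methylation data are analysed here. All 27 mice were females aged 12 weeks, with 3 samples, numbered as biological replicates, from each of 9 inbred strains. C57BL/6J, A/J, 129S1/SvImJ, NOD/ShiLtJ, DBA/2J and NZO/HlLtJ are laboratory strains, and WSB/EiJ, PWK/PhJ and CAST/EiJ come from wild mice. No treatment or engineered allele was named, and no strain served as a control. The labelled cell type could not be set against marker genes, since no expression values were used here.

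Srebf1 and Srebf2 encode membrane-bound transcription factors (SREBP-1 and SREBP-2) that are cut free when sterols run low or insulin is high, and that then switch on genes of fatty acid and of cholesterol synthesis. Mlxipl encodes ChREBP, which responds to glucose and shares many lipogenic target genes with SREBP-1c. Acaca makes malonyl-CoA, Fasn builds palmitate from it, Elovl6 lengthens palmitate to stearate, and Scd1 puts a double bond into these fatty acids. The 7 genes hold no enzyme of cholesterol synthesis, and only Srebf2 is mainly tied to that pathway, so 46 further genes of both pathways and of their regulation were examined beside them. Unmethylated CpG islands at starts and methylated gene bodies are the common state of genes in use.

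The sequences around 4 starts are shown, with 1 window per gene: Srebf1, Fasn and Mlxipl for their number of measured CGs and Mvk for the largest strain difference among the starts of the further genes. Each runs 5′ to 3′ on the strand of the gene, from 250 bases before to 50 bases after the start (RefSeq, GRCm38.p6), and capitals mark each CG with a measured position on either strand. Srebf1 is chr11:60222532-60222831 on the minus strand and Fasn is chr11:120824498-120824797 on the minus strand. Mlxipl is chr5:135089640-135089939 and Mvk, which encodes mevalonate kinase, is chr5:114444019-114444318, both on the plus strand.
Srebf1: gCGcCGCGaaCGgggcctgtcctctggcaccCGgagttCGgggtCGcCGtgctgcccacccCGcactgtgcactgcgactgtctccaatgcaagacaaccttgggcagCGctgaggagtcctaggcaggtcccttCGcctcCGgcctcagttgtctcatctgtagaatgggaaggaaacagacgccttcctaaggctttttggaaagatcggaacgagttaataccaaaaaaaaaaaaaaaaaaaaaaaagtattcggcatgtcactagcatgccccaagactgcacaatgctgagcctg
Fasn: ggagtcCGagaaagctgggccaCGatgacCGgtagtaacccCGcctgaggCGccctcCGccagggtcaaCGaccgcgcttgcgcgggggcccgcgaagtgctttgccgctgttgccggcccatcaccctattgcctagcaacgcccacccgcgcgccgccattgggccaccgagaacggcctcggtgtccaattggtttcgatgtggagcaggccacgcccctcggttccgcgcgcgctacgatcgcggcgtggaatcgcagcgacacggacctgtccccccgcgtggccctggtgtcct
Mlxipl: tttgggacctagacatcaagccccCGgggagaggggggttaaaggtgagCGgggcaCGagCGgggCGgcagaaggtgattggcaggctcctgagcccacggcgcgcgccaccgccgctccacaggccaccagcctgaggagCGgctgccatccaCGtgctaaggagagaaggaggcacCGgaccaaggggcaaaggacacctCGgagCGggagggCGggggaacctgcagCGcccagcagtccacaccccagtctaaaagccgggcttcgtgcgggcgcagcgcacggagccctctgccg
Mvk: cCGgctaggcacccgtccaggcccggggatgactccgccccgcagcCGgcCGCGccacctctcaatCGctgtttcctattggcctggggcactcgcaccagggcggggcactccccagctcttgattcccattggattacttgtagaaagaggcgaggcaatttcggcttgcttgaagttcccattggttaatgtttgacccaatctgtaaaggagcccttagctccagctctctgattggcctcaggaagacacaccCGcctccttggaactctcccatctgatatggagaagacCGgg
Of the CGs in these windows, 12 of 17 were measured in Srebf1, 7 of 39 in Fasn, 12 of 25 in Mlxipl and 7 of 15 in Mvk. The mean level over the measured positions was 0.756% at Srebf1, 0.371% at Fasn and 0.639% at Mlxipl. At Mvk it was 43.2% in PWK/PhJ, and no position there exceeded 13.9% in any other strain. The Mlxipl window held an E-box (CACGTG) at base -98, a motif found on either strand in 7.15% of all 32851 promoters of the table, and the Mvk window held 5 CCAAT boxes (CCAAT), a motif found in 37.4% of them. The sterol element TCACNCCAC, present in 1.24% of promoters, occurred in none of these 4 windows and at base -136 of the downstream Mlxipl start. These matches describe letters in the reference only. RefSeq windows were found for 6 of the 7 genes, and Scd1 had none.

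Starts were unmethylated in every strain. Promoter level was the mean over positions within 1 kb of a start, in percent, where each sample's percentage is itself an average over its cells and both chromosome copies, so that fewer methylated cells and fewer methylated copies per cell cannot be told apart. The 8 starts with positions averaged 0.433% (Srebf1, at 60210471) to 0.797% (Mlxipl, at 135089890). At the most measured of them, Fasn with 190 positions, the lowest strain mean was 0.399% ± 0.102 (SD, n = 3), in 129S1/SvImJ, and the highest 0.844% ± 0.402 (SD, n = 3), in PWK/PhJ. Srebf2, with 84 positions, was lowest in CAST/EiJ, at 0.346% ± 0.0479 (SD, n = 3), and highest in A/J, at 0.617% ± 0.285 (SD, n = 3). The gaps were of the size of the spread between samples.

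None of the 8 starts was called different among strains by limma's moderated F test (adjusted p under 0.05), where 19.8% of 13443 promoters were called. At an unadjusted p under 0.05 the count was also 0 of 8. Some of the 8 starts share a gene and all averaged 0.797% or less, whereas the 19.8% covers promoters of every level. The widest range of strain means, 2.62 points, was at the upstream Mlxipl start, where PWK/PhJ was at 2.79% ± 1.91 (SD, n = 3) and the others were at or below 0.976% (adjusted p = 0.231). The PWK/PhJ samples were at 1.75, 1.62 and 5%, and without PWK/PhJ replicate 3, the highest, the range was 1.52 points. Averaging both strands of each CpG gave this start a call, with an adjusted p of 0.0342. Without PWK/PhJ replicate 1 the Fasn start was called (adjusted p = 0.0194), and in all other settings neither was. The middle level over promoters of the genome was 0.945%, and 83.9% of promoters were below 10%, so low levels at these starts are the common state.

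Scd1 had no start in the table, and its higher-coordinate end was measured instead. It averaged 1.02% over 37 positions and was lowest in C57BL/6J, at 0.391% ± 0.244 (SD, n = 3), and highest in CAST/EiJ, at 1.96% ± 0.284 (SD, n = 3), without a call (adjusted p = 0.204), where 22.6% of 3479 such ends were called. Leaving out 129S1/SvImJ replicate 2, 129S1/SvImJ replicate 3 or NOD/ShiLtJ replicate 1 gave it a call, with adjusted p of 0.0147, 0.0172 and 0.0490. A single Scd1 position averaging 71.1% stood apart from these. It lay near the other, lower-coordinate end, which had too few positions to be averaged. The only Acaca start in the table had no measured position within 1 kb. Instead, Acaca carried 3 unmethylated tiles (windows of 1 kb) far from that start: chr11:84129001-84130000 at 0.629% over 93 positions, chr11:84179001-84180000 at 0.524% over 82, and chr11:84180001-84181000 at 0.623% over 36. The first tile overlaps the neighbouring protein-coding gene Tada2a, and the 63 upstream-flank positions of Acaca lie inside that gene. Together with the ends, 523 positions lay at starts, with a median of 0.372%, and 509 of them averaged under 2.5%.

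**Figure D1:**
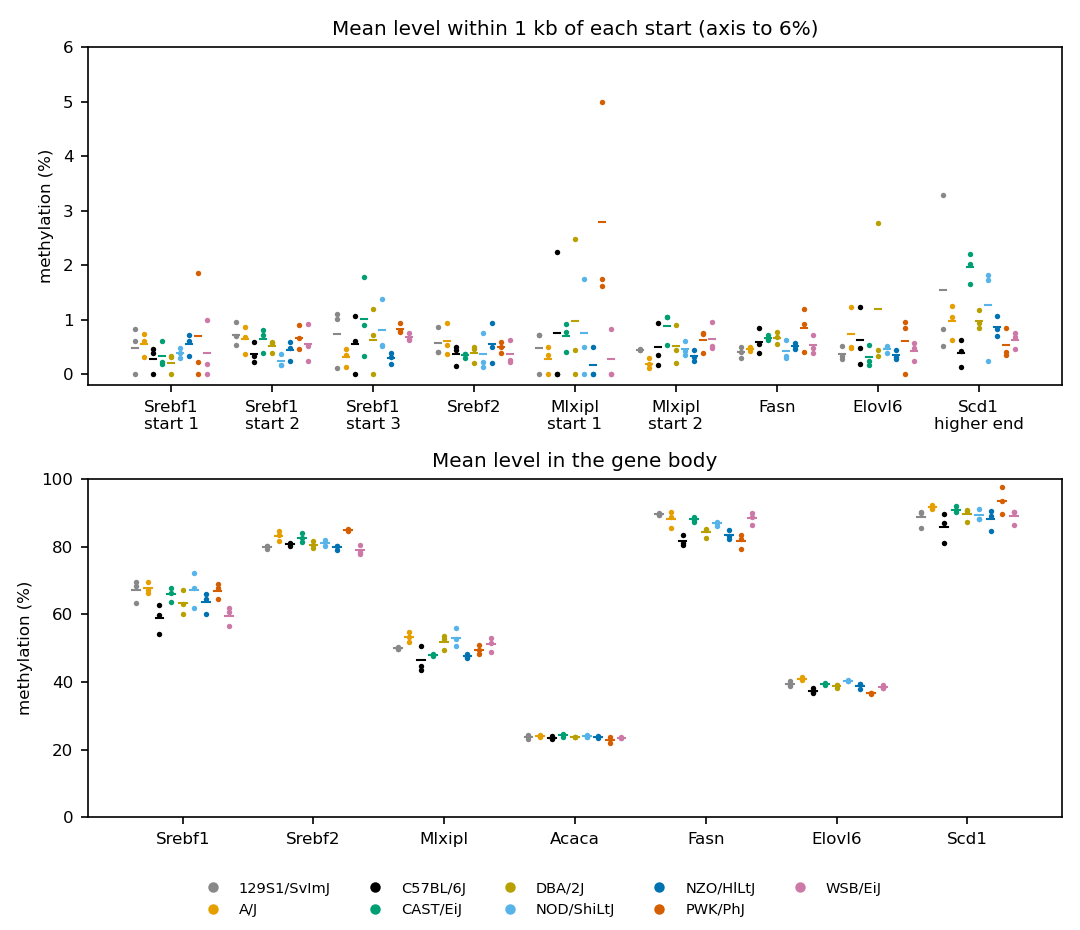
Methylation level (%) of each sample (points, coloured by strain, 3 per strain) with strain means (bars), within 1 kb of each start (top, axis to 6%) and in the gene body (bottom). Starts are ordered by coordinate within a gene, and Acaca has no measured start. Starts are at or below 5% in every sample, while bodies average 23.7% (Acaca) to 89.7% (Scd1).

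Gene bodies differed from each other far more than strains did. The body, the part of a span farther than 1 kb from a start, averaged 64.6% in Srebf1, 81.4% in Srebf2 and 50.1% in Mlxipl. Among the enzymes it averaged 23.7% in Acaca, 85.8% in Fasn, 38.9% in Elovl6 and 89.7% in Scd1. The low Acaca and Elovl6 averages held many unmethylated positions: 148 of 197 body positions in Acaca and 132 of 235 in Elovl6 were below 10%. In Elovl6 most of these lay in the tiles centred 1114 and 2114 bases past the start, at 0.509% and 0.686%, next to the start window. In Acaca all 148 lay in the unmethylated tiles named above, the first of which holds the lower-coordinate end of the span, and its 5 other tiles were at 91.4% to 96.1%. In Mlxipl 35 of 106 body positions were below 10%. Its tile centred 1609 bases past the downstream start, next to that start window, held 25 positions at 0.969%. The Acaca, Elovl6 and Mlxipl averages are therefore not levels of the body away from such stretches.

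Bodies of 4 of the 7 genes were called different among strains, where 34.7% of 12282 bodies were called. Fasn was highest in 129S1/SvImJ, at 89.7% ± 0.332 (SD, n = 3), and lowest in PWK/PhJ, at 81.7% ± 2.07 (SD, n = 3), with C57BL/6J next to it at 81.8% ± 1.56 (SD, n = 3) (adjusted p = 6.5e-05). For Srebf2 the highest strain was PWK/PhJ, with 85.0% ± 0.290 (SD, n = 3), and the lowest WSB/EiJ, with 79.0% ± 1.39 (SD, n = 3) (adjusted p = 0.00023). Its 92 body positions include the 9 of the tile chr15:82199001-82200000, described below. There PWK/PhJ was at 83.7% and the other strains were between 33.4% and 56.8%. The Srebf2 body without that tile was not tested, so its order of strains may not hold along the whole body. Elovl6 spanned 40.9% ± 0.384 (SD, n = 3) in A/J to 36.7% ± 0.188 (SD, n = 3) in PWK/PhJ (adjusted p = 0.0026). Its 235 body positions include the 16 of the tile chr3:129578001-129579000, also described below. There PWK/PhJ was at 69.2% and the other strains were between 94.2% and 97.4%. The Elovl6 body without that tile was not tested either, so the low PWK/PhJ mean may not hold along the whole body. In Mlxipl, A/J was at 53.3% ± 1.5 (SD, n = 3) and C57BL/6J at 46.4% ± 3.86 (SD, n = 3) (adjusted p = 0.0164), a range of 6.93 points, and with positions listed in all 27 samples the range was 4.28 points and the call was lost (adjusted p = 0.143). Without CAST/EiJ and PWK/PhJ the bodies of Elovl6 (range 3.55 points, adjusted p = 0.0590) and Mlxipl (range again 6.93 points, adjusted p = 0.0558) were not called, and those of Fasn and Srebf2 were. With those strains left out, 17.6% of bodies in the genome were called.

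The 4 ranges ran from 4.28 points in Elovl6 to 7.98 points in Fasn. With positions listed in all 27 samples the range in the body of Srebf2 rose to 9.44 points (adjusted p = 1.67e-06). With a minimum range of 10 points, 0 of the 7 bodies were called, against 15.3% of bodies in the genome. Srebf1 had the widest range, 8.79 points, with more spread inside strains (adjusted p = 0.0537), and it passed the threshold without 129S1/SvImJ replicate 1 (0.0385), C57BL/6J replicate 2 (0.0312), DBA/2J replicate 4 (0.0411), NOD/ShiLtJ replicate 1 (0.0181) or NOD/ShiLtJ replicate 3 (0.0492). It also passed with untransformed percentages (0.0443) and with positions listed in all 27 samples (range 10.8 points, adjusted p = 0.0231). Acaca (range 1.37 points, adjusted p = 0.692) and Scd1 (range 7.73 points, adjusted p = 0.127) were not called. Scd1 was called without PWK/PhJ replicate 2 (adjusted p = 0.0269).

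At single positions, strain differences were concentrated in 1 place. A position was called when its adjusted p was under 0.05 and strain means spanned at least 25 points; over the genome 4.33% of 868552 tested positions were called. Of the members, 868 averaged below 2.5% and 75 within 2.5 points of full methylation, which left 572 tested, and 59 of these (10.3%) were called. Srebf2 held 42 of them and Elovl6 10, Srebf1 and Fasn 2 each, and Mlxipl, Acaca and Scd1 1 each. At starts, 0 of 14 tested positions were called by this test (2 had an unadjusted p under 0.05). In bodies 21 of 437 tested positions were called, and in flanks 38 of 121. Only 14 positions were tested at starts, too few to set 0 calls apart from the genome share of 4.33%. With CAST/EiJ and PWK/PhJ left out, 3 positions were called, and 1.49% of the genome. A single tile downstream of Srebf2, chr15:82207001-82208000, held 37 of the 59. Outside it 22 of 496 tested positions were called (4.44%), a share near that of the genome.

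That tile lies beyond the 3′ end of Srebf2 and inside Shisa8, a gene of the shisa family of membrane proteins, whose start on the opposite strand is 4815 bases from the tile. Over its 76 positions the 3 PWK/PhJ samples were at 51.0, 49.6 and 48.3%. The CAST/EiJ samples were at 19.9, 21.0 and 23.6%. A/J followed with 14.97, 18.5 and 19.6%, and C57BL/6J with 11.3, 17.7 and 11.3%. No PWK/PhJ sample overlapped any other strain, and CAST/EiJ was next, with its lowest sample just above the highest A/J sample. The lowest strain was 129S1/SvImJ, at 5.31, 7.78 and 9.75%. Means of the remaining 4 strains lay between 9.32% and 11.5%, closer to each other than their samples were spread.

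The tile spanned 42.0 points and was called with an adjusted p of 1.9e-09, and 8.3% of 58175 tiles in the genome were called. At all 37 called positions in it PWK/PhJ was the highest strain, and at 29 of them CAST/EiJ was second. Medians of strain means over the 37 were 56.8% in PWK/PhJ, 29.5% in CAST/EiJ and 3.14% in the other 7 strains. The 37 were selected by their call from the 76 positions of the tile, so this order and these medians add no separate support. Positions 82207296 and 82207360 passed the filter on the mean only through PWK/PhJ. In a fit of those 7 strains alone the tile spanned 10.1 points, below the minimum of 25 (adjusted p = 0.0354). The tile was picked after its values were seen. Neighbouring positions share reads, so the 37 are not independent.

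A separate Srebf2 tile, chr15:82199001-82200000, lay inside the gene body downstream of Mir33, the microRNA that Srebf2 carries in an intron and that acts on cholesterol export. The PWK/PhJ samples were at 88.9, 70.9 and 91.3% over its 9 positions. The other strains ran from 25.9% in the lowest NZO/HlLtJ sample to 64.8% in the highest A/J sample. PWK/PhJ did not overlap them. Strain means were 83.7% ± 11.1 (SD, n = 3) in PWK/PhJ and between 33.4% and 56.8% in the others, a range of 50.3 points (adjusted p = 4.9e-05). At the called position 82199782 the PWK/PhJ samples read 100, 83.3 and 81.8%, and every other sample was at or below 57.1%. At its neighbour 82199783, on the opposite strand, PWK/PhJ read 90, 85.7 and 100% and no other sample exceeded 50%, with an adjusted p of 0.0142, or 0.0904 without PWK/PhJ replicate 1, 0.0757 with an offset of 1 point and 0.0682 without the filter on the mean.

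Away from these tiles, the Srebf2 position 82166352 was at 100% in both CAST/EiJ samples that listed it, and no other strain's mean exceeded 25% (adjusted p = 0.0167). Leaving out either CAST/EiJ sample ended this call (adjusted p = 0.19 without replicate 4 and 0.188 without replicate 5), as did the replicate block (0.226) and dropping the filter on the mean (0.0913). The tile patterns of Srebf2 held without any 1 of the 27 samples, with the highest adjusted p at 0.00104 for the body tile. Of the called tiles on other chromosomes, those most like the Srebf2 body tile across the 27 samples lay in Bco1 on chromosome 8 (Pearson r = 0.892), Mideas on chromosome 12 (r = 0.884) and Nfe2l1 on chromosome 11 (r = 0.872), of 4606 compared. These are descriptions over samples that share strains.

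**Figure D2:**
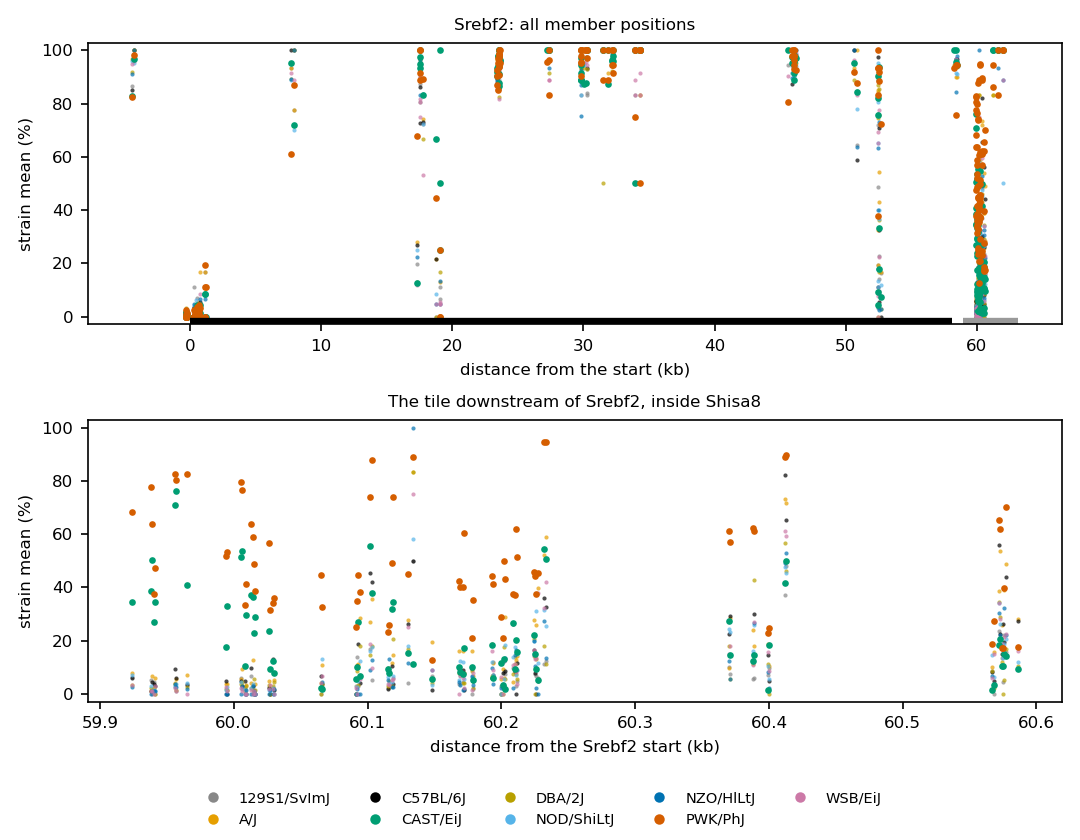
Strain mean (%) at each Srebf2 member position against distance from the start (top, kb) and in the downstream tile alone (bottom); points are strains, PWK/PhJ and CAST/EiJ drawn larger, with bars for Srebf2 (black) and Shisa8 (grey). Positions near the start are low in all strains, most of the body is high, and PWK/PhJ lies above the other strains through much of the downstream tile.

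In Mlxipl the tile chr5:135113001-135114000, centred 6609 bases past the downstream start and read at 10 positions, was at 81.7, 86.7 and 60% in NOD/ShiLtJ and at 33.3, 27.5 and 33.8% in CAST/EiJ. These strains did not overlap, but samples within other strains lay far apart, from 43.3 to 81.7% in A/J. The tile was called (range 44.6 points, adjusted p = 0.0229), and not without NOD/ShiLtJ replicate 1 (0.0536), without NOD/ShiLtJ replicate 2 (0.0557), with the replicate number as a block (0.0708) or without CAST/EiJ and PWK/PhJ (0.136). The called Mlxipl position, 135126960, was likewise highest in NOD/ShiLtJ, at 82.3%, and lowest in CAST/EiJ, at 37.2% (adjusted p = 0.0131). It lost its call with an offset of 1 point (0.107), with the replicate number as a block (0.141) and without CAST/EiJ and PWK/PhJ (0.155).

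Srebf1 had no called tile among 4 tested. Its called positions were 60202211, at 33.3 and 50% in the WSB/EiJ samples that listed it and at 100% in all listed samples of 6 strains (adjusted p = 0.0194), and 60200513, at 95.2% in A/J and 51.0% in C57BL/6J (adjusted p = 0.0412). The first lost its call without WSB/EiJ replicate 3 (0.141) or 4 (0.0753), with the block (0.104), without the filter on the mean (0.0718) and without CAST/EiJ and PWK/PhJ (0.118). The second lost it in 18 of 27 runs without a sample, with an adjusted p up to 0.212, and in 6 other settings, with an adjusted p from 0.0546 (offset of 1 point) to 0.139 (replicate block).

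Among the enzymes, Elovl6 had 2 called tiles. The tile chr3:129578001-129579000, centred 46114 bases past the start, was at 75.3, 63.7 and 68.6% in PWK/PhJ over 16 positions. All other strain means lay between 94.2% and 97.4%, and no sample of theirs was below 90.8%. PWK/PhJ alone was low, by a range of 28.2 points (adjusted p = 8e-06), and the call held without any 1 sample. Within it, position 129578392 read 20, 11.1 and 22.2% in PWK/PhJ and at least 85.7% in every other sample. This position passed the filter on the mean only through PWK/PhJ, so its call adds no separate support. Position 129578393, on the opposite strand of that CpG, read 25, 0 and 11.1% in PWK/PhJ, and only a CAST/EiJ sample, at 50%, came near. At 129578372 PWK/PhJ read 10, 11.1 and 22.2%, and every other sample read 50% or more. Without CAST/EiJ and PWK/PhJ this tile spanned 3.24 points.

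The other called Elovl6 tile, chr3:129552001-129553000, followed another order of strains. It was highest in A/J, at 76.5, 79.3 and 90.6%, and lowest in C57BL/6J, at 52.2, 59.9 and 59.1%, over 7 positions. The range of 25.05 points was just past the minimum of 25 (adjusted p = 0.0016), and it fell short without A/J replicate 3 (22.7 points) or C57BL/6J replicate 1 (22.6 points) and without all C57BL/6J samples (16.2 points). Upstream of the gene, in the long noncoding RNA gene Gm35986, the position 129527779 was at 68.8% in CAST/EiJ and 71.0% in PWK/PhJ and at or below 31.3% elsewhere (adjusted p = 0.0044). This position was chosen after its values were seen. Elovl6 thus had calls with PWK/PhJ high and calls with PWK/PhJ low.

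**Figure D3:**
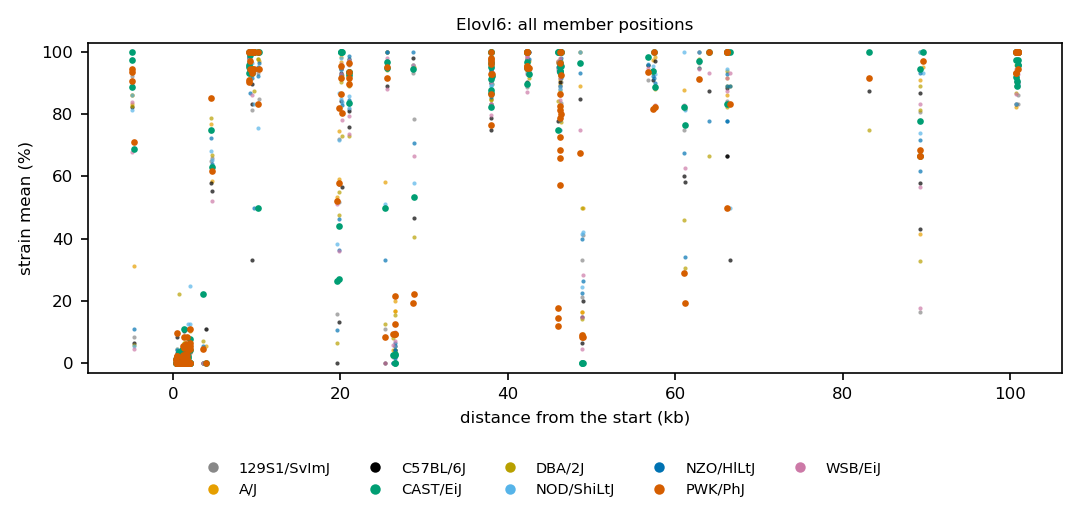
Strain mean (%) at each Elovl6 member position against distance from the start (kb); points are strains, PWK/PhJ and CAST/EiJ drawn larger. The many positions within a few kb of the start are low, most of those farther away are high, and PWK/PhJ alone falls below 20% near 46 kb.

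In Acaca, the tile chr11:84207001-84208000 was at 55.4, 86.1 and 80% in PWK/PhJ, and other strain means were 95.9% to 99.2%. PWK/PhJ was the low strain, and its samples were widely spread. The tile was called over 6 positions (range 25.4 points, adjusted p = 0.0065), and the call ended without PWK/PhJ replicate 2 (range 16.2 points, adjusted p = 0.0887) or either of 129S1/SvImJ replicates 1 and 3 (range 24.99 points, just under the minimum), and with an offset of 1 point (0.0665). The tile passed the filter on the mean only through PWK/PhJ, and without CAST/EiJ and PWK/PhJ it was not tested. The nearby called Acaca position 84208047 lay in the pseudogene Gm31074 and read 0, 10 and 50% in PWK/PhJ, with every other sample at 75% or more (adjusted p = 0.000866).

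Fasn had a called tile downstream of the gene, chr11:120803001-120804000, at 100% in all 3 A/J samples and at 50, 80 and 70% in PWK/PhJ over 5 positions (range 33.3 points, adjusted p = 0.0219). Without A/J replicate 1, 2 or 3 the adjusted p was 0.0516, 0.0513 and 0.0517, and without the C57BL/6J samples it was 0.0579. The call also ended with listed values only, with none filled in (range 34.5 points, adjusted p = 0.0636), and without CAST/EiJ and PWK/PhJ (0.0617). Its called positions were 120820289, from 22.2% in PWK/PhJ to 100% in WSB/EiJ (adjusted p = 0.0239), and 120820304, from 25% in C57BL/6J to 100% in 129S1/SvImJ, A/J and WSB/EiJ (adjusted p = 0.0434). They lost the call in 7 and in 20 of 27 runs without a sample, and both lost it with the replicate block (0.0801 and 0.174), with untransformed percentages (0.0693 and 0.101) and without the filter on the mean (0.125 and 0.174). Without the C57BL/6J samples the range at 120820304 fell to 36.2 points (adjusted p = 0.315), and without CAST/EiJ and PWK/PhJ its adjusted p was 0.0961. In Scd1, the called position 44405742 read 33.3, 100 and 33.3% in PWK/PhJ and 0 in all other samples that listed it (adjusted p = 0.0137, or 0.068 without the filter on the mean and 0.0567 with untransformed percentages). It passed that filter only through PWK/PhJ.

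**Figure D4:**
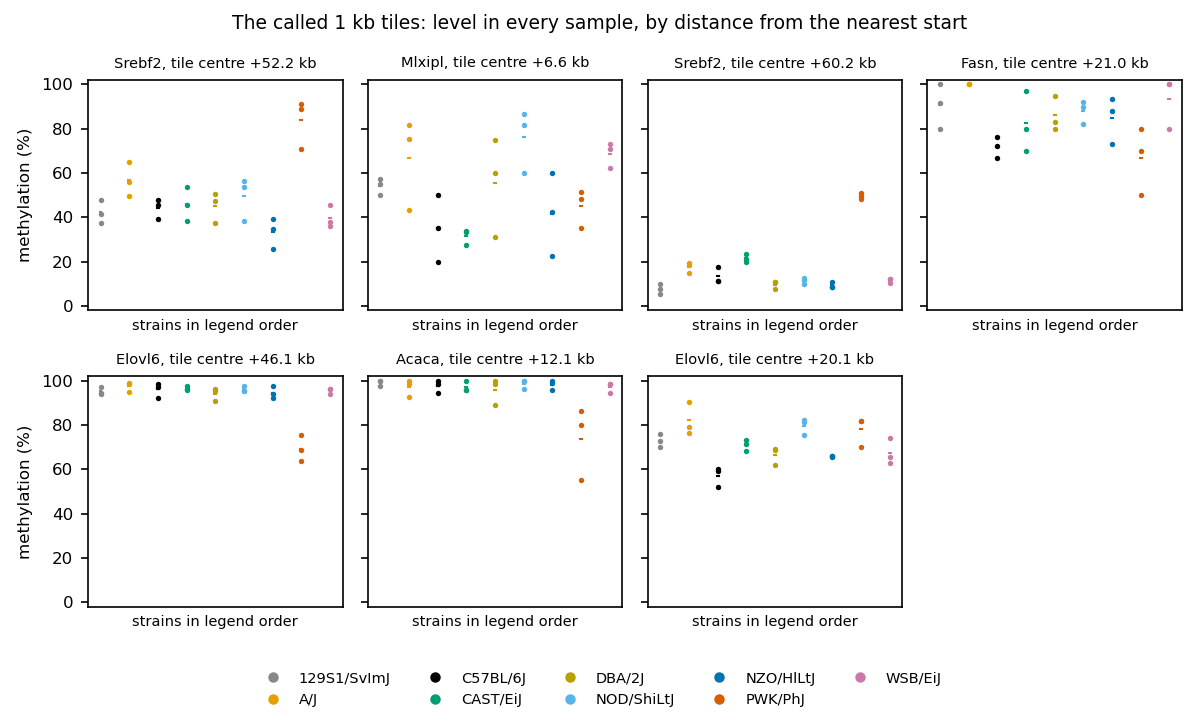
Methylation level (%) in every sample (points, 3 per strain, with strain means as short bars) for the 7 called tiles, headed by the distance of the tile centre from the nearest start. PWK/PhJ is set apart above the other strains in both Srebf2 tiles and below them in the Elovl6 tile at +46.1 kb and the Acaca tile.

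In all, 7 of 42 tested tiles were called, where 8.3% of tiles in the genome were. Without CAST/EiJ and PWK/PhJ, 1 of 41 was called, the Elovl6 tile led by A/J, and 3.82% of the genome. Among the 22 called positions outside the downstream Srebf2 tile, PWK/PhJ was the lowest strain at 9 and the highest at 6, C57BL/6J was lowest at 7 and A/J highest at 5. Listing differed as well: of 1755 positions around the 7 genes present in each C57BL/6J file, 6.15% were in no CAST/EiJ file and 7.12% in no PWK/PhJ file, against 12.1% and 12.0% over the genome. Around Srebf2 the share missing in PWK/PhJ was 14.9% and around Elovl6 the share missing in CAST/EiJ was 13.6%. A strain variant that alters a CpG can change the percentage given there, and its part in these results was not tested.

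Over all 1515 positions the highest mean level was that of PWK/PhJ, 31.2% ± 0.310 (SD, n = 3), followed by A/J, 30.9% ± 0.473 (SD, n = 3), and the lowest that of C57BL/6J, 28.4% ± 1.03 (SD, n = 3). Missing values were set to the mean of the strain, 429 in all. Samples ran from 27.5 to 31.5%, and strains differed (permutation test of F with 100000 resamples, F = 11.0, p = 2e-05). Without the downstream Srebf2 tile F was 6.84 (permutation p = 7e-05), and A/J led with 31.6% while PWK/PhJ was at 30.2%. Over the genome under the same rule PWK/PhJ was also highest, at 31.8%, and C57BL/6J lowest, at 30.6%.

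The 46 further genes of fat and sterol synthesis had 44 measured starts or ends, of which 5 (11.4%) were called: 1 of 16 in fatty acid and lipid synthesis, 3 of 19 in cholesterol synthesis and 1 of 9 among SREBP and ChREBP regulators. Over the genome 19.8% of promoters and 22.6% of ends were called. Bodies were called in 9 of 14, 6 of 12 and 2 of 4, where 34.7% of bodies in the genome were called, and tiles in 6 of 57, 6 of 43 and 1 of 21. Over the lists 10.7% of tiles were called, against 8.3% of the genome.

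Mvk had the widest range among these starts. The 3 PWK/PhJ samples were at 44.1, 47.0 and 45.0% over 50 positions, and strain means of the others ran from 0.189% in NOD/ShiLtJ to 3.05% in DBA/2J. PWK/PhJ was far from every other sample (range 45.2 points, adjusted p = 8.5e-18). Of 46 tested positions 45 were called, and PWK/PhJ was above all other strains at 48 of 50. Many of these positions were at 0 in every other strain and passed the filter on the mean only through PWK/PhJ. The count of calls was therefore largely set by the filter, and neighbouring positions share reads. The PWK/PhJ level was intermediate at most positions: the median was 46.4% and the highest 86.0%, 45 of 50 were above 25%, 0 were above 90%, and 2 were at 0. Mvk starts 242 bases from Mmab, a gene of vitamin B12 metabolism that is read from the opposite strand, so the measured stretch, from base -595 to base 478, covers both starts.

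**Figure D5:**
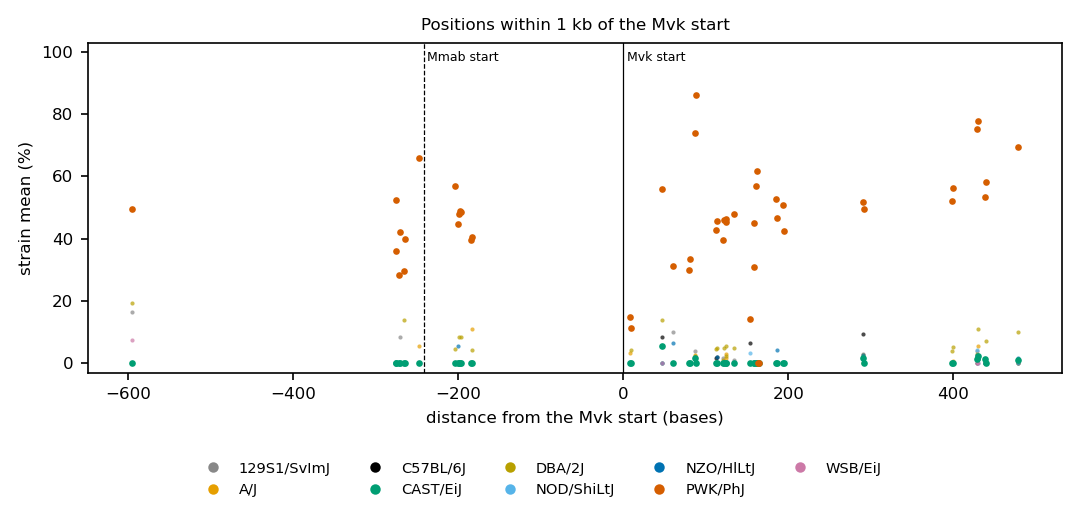
Strain mean (%) at positions around the Mvk start against distance from it in bases; points are strains, PWK/PhJ and CAST/EiJ drawn larger, the solid line is the Mvk start and the dashed line the Mmab start. PWK/PhJ lies mostly between 25 and 86%, and the other 8 strains lie at or below 19.4%.

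The other called starts had narrower ranges. Hsd17b7, a sterol reductase, reached 5.55% ± 0.694 (SD, n = 3) in CAST/EiJ and stayed at or below 0.997% elsewhere (adjusted p = 1.6e-07). Without CAST/EiJ and PWK/PhJ its range was 0.584 points and it was not called (adjusted p = 0.821). Gpam, which starts triglyceride synthesis, ran from 4.27% ± 0.307 (SD, n = 3) in WSB/EiJ to 13.7% ± 1.32 (SD, n = 3) in NOD/ShiLtJ over 125 positions (adjusted p = 3e-06). At an end of Fdps, farnesyl diphosphate synthase, levels were intermediate, from 33.1% ± 4.74 (SD, n = 3) in DBA/2J to 50.8% ± 6.40 (SD, n = 3) in A/J (adjusted p = 0.0229), and the call ended without A/J replicate 1 (0.0896) or 3 (0.073), with the block (0.0539) or without CAST/EiJ and PWK/PhJ (0.0647). Mlxip, which encodes MondoA and is a paralogue of Mlxipl, ran from 1.54% in PWK/PhJ to 3.60% in A/J (adjusted p = 0.00079), and was not called within 500 bases of its start (adjusted p = 0.993) or without CAST/EiJ and PWK/PhJ (0.0571).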

How the data were processed

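Methylation was measured by RRBS in hepatocytes of 27 mice. For each sample the authors deposited a percent methylation per position, without read numbers, so depth is unknown and counting error cannot be given. Between 2904787 and 3156965 positions were listed per sample. The submitters' processing notes name Trim Galore 0.6.3, Bowtie2, Bismark 0.22 and the builds GRCm38 and mm10; any coverage filter was not given in the sources used here. Of listed positions in RefSeq promoters, 99.8% in C57BL/6J and at least 98.2% in each strain fell on a CG of GRCm38.p6. The files of C57BL/6J name the mitochondrial chromosome differently from the rest, so any difference in processing behind this cannot be told apart from that strain.

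Strains were compared by limma's moderated F test on log2((percent + 5)/(100 - percent + 5)), adjusted by Benjamini-Hochberg over all features of a kind in the genome. The code used pandas 2.3.3, scipy 1.17.1 and numpy 2.4.6 under Python 3.11.15. On 40619 positions it was checked with R 4.3.3 and its package limma 3.58.1, where 2077 were called by both and 0 differed. It was also tested on simulated data. Figures were drawn with matplotlib 3.10.9. Tiles of 1 kb, starts (within 1 kb) and bodies needed at least 5 positions, and a missing value was set to the mean of its strain; at single positions the missing sample was dropped. Calls at positions and tiles also needed a range of 25 points. Positions and tiles were tested where the mean over all 27 samples was between 2.5 and 97.5%. A feature near no or full methylation in most strains could thus be tested through a single strain. With 3 samples per strain, the F test sets strain differences against the spread within strains in these samples. That spread is pooled over strains and moderated over all features of a kind.

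The 7 genes and the lists of further genes were chosen with earlier results of these data known. Named are all starts and bodies of the 7 genes, up to 5 called tiles and 3 called positions per gene by range, the 3 genes most like the widest called tile, and the further genes called at a start; the further gene holding the widest called tile was also to be named and is not reported here. Alternatives included other offsets, listing rules, windows, strains left out, each sample left out and a block for replicate number.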

Additional observations from a re-analysis of the deposited data

How the results depend on the processing

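Of 1876 alternative values, 1727 kept their side of the threshold or stayed within 1.5 times a count. Direction was compared only for called results whose highest and lowest strains both remained, and 0 of these reversed. Several settings leave the strain means unchanged and so could not reverse a result. Without CAST/EiJ and PWK/PhJ, calls fell from 59 to 3 positions, from 7 to 1 tiles and from 4 to 2 bodies. In the further genes they fell from 13 of 121 to 6 of 118 tiles. Genome shares fell as well, from 4.33% to 1.49% of positions, from 8.3% to 3.82% of tiles and from 34.7% to 17.6% of bodies. Fewer samples and strains are part of this setting. A minimum range of 10 points gave 11 of 42 tiles, and 33 of 121 in the further genes, against 20.05% of tiles in the genome. It gave 0 of 7 bodies, and 8 of 30 in the further genes, against 15.3% of bodies in the genome. In the further genes it gave 2 of 44 starts or ends, against 5.71% of promoters and 9.08% of ends in the genome. Positions listed in all 27 samples gave 4 of 29 tested tiles, against 8.01% of tiles in the genome. Averaging both strands gave 1 called start among 9 starts or ends (17.7% of promoters in the genome). It gave 7 of 78 tiles of the further genes (7.83% of tiles in the genome). With tiles of at least 3 positions, 27 of 197 tiles of the further genes were called (8.22% of tiles in the genome). Without flanks 21 of 446 positions were called, against 4.33% of the genome. Without the downstream Srebf2 tile, an alternative chosen after seeing the data, 22 of 496 were called, again against 4.33% of the genome. The cause of the other moves was not tested. With each sample left out in turn, counts ran from 50 to 62 positions, 6 to 9 tiles, 0 to 1 starts and 4 to 5 bodies, and in the further genes from 12 to 15 tiles, 4 to 7 starts and 16 to 20 bodies; the F of the mean level ran from 9.24 to 22.8. Same-numbered samples of different strains showed no shared deviation (correlations -0.0081 to 0.0088 over 76 pairs), and 7 of 26 samples correlated best with their own number. Deviations at single positions carry counting error of unknown size, so these correlations cannot decide whether the numbers mark a shared day or batch. With the replicate number as a block, 48 positions, 6 tiles, 0 starts and 4 bodies were called. Depth is unknown, so its part in the spread at single positions was not tested.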

Other observations

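Acacb, the acetyl-CoA carboxylase that makes malonyl-CoA at mitochondria, held 3 called tiles, and is described here because its values were seen. In the adjoining tiles chr5:114175001-114176000 and chr5:114176001-114177000, PWK/PhJ was at 36.0% ± 1.68 (SD, n = 3) and 51.5% ± 2.92 (SD, n = 3), and CAST/EiJ at 26.3% ± 10.1 (SD, n = 3) and 48.5% ± 14.1 (SD, n = 3). In the first of these the other 7 strains were at or below 7.04% (adjusted p = 7.5e-08). In the second they ran from 3.31% in 129S1/SvImJ to 31.1% in NOD/ShiLtJ (adjusted p = 4.2e-06). The third Acacb tile, chr5:114147001-114148000, had another order: CAST/EiJ was lowest, at 30.0% ± 11.2 (SD, n = 3), A/J highest, at 74.9% ± 8.45 (SD, n = 3), and PWK/PhJ between them, at 48.6% ± 7.99 (SD, n = 3) (adjusted p = 0.00599). A tile near Mvk, chr5:114439001-114440000, set 129S1/SvImJ apart, at 35.3% ± 5.16 (SD, n = 3) against 80.0% to 91.6% in the other strains (adjusted p = 3.8e-07), and not PWK/PhJ as at the Mvk start. The tile lies inside Mmab and was counted for cholesterol synthesis only through the 5 kb flank of Mvk.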
